A study of Mus musculus with 6 samples.

Results

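The genes described here encode 9 proteins of tight junctions and epithelial polarity, namely occludin (Ocln), tricellulin (Marveld2), MarvelD3 (Marveld3), junctional adhesion molecule A (F11r), the zonula occludens proteins ZO-1 and ZO-3 (Tjp1 and Tjp3), cingulin (Cgn), afadin (Afdn) and the polarity protein PAR6 beta (Pard6b). Every ATAC-seq peak that the authors assigned to one of them was taken, whatever its annotation, which gave 110 of 214414 peaks in all. The genes were selected on the fold changes of this same comparison, in the sense that earlier results of it were known when they were picked, so their fold changes are given as a description and not as a test. The samples were mouse organoids of non-small cell lung cancer, 3 ATAC-seq libraries from organoids resistant to immunotherapy and 3 from sensitive ones. ATAC-seq reads where a transposase can cut open DNA, and organoids are cells grown as 3-dimensional cultures. All 6 are labelled as non-small cell lung cancer cells, and the labels used here name no strain, genotype, age or culture history, and they leave it unsaid if replicate libraries are separate cultures, so the spread behind each standard error may be technical. The values come from the authors' deposited table, a finished comparison with 1 mean count, 1 log2 fold change (resistant over sensitive, as the title of the table has it) and 1 standard error (SE) per peak. Only that title gives the sign its meaning, and with the groups swapped all directions given here would be the opposite.

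Tight junctions seal the space between neighbouring epithelial cells near their apical side. Occludin, tricellulin and MarvelD3 are a family of proteins that cross the membrane and share a MARVEL domain, tricellulin lying mostly where 3 cells meet, and junctional adhesion molecule A is an immunoglobulin-type adhesion protein. Below the membrane the ZO proteins tie these proteins to actin, cingulin joins the plaque to actin and myosin, and afadin links nectins at adherens junctions to actin. PAR6 proteins bind PAR3, Cdc42 and atypical protein kinase C and help to set up the apical domain. Repressors of the Snail and ZEB families lower such genes in many epithelial cells that take on mesenchymal traits, through short E-box elements with the letters CAGGTG or CACCTG.

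The promoter windows below show where that E-box stands in 4 genes with a lower promoter, beside 2 that hold none, Cgn with a lower promoter and Tjp1 with an uncalled one. They are RefSeq windows of 300 bases on GRCm38.p6 (250 bases before to 50 after an annotated start), printed 5′ to 3′ on the strand of the gene with CAGGTG or CACCTG in capitals, and each lies wholly inside an ATAC peak.
Ocln, chr13:100552449-100552748, minus strand: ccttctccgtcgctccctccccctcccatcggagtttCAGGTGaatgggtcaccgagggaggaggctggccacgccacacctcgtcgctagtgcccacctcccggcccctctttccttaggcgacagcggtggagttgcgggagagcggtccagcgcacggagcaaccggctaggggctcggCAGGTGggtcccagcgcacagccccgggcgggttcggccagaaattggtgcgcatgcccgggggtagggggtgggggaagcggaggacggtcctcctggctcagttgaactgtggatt
Marveld2, chr13:100616922-100617221, minus strand: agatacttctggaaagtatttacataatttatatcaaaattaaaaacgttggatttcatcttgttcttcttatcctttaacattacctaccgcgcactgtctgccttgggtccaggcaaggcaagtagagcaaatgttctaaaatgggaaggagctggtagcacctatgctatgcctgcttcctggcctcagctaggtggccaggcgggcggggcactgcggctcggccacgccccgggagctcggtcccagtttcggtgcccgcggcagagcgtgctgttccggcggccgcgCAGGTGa
F11r, chr1:171437311-171437610, plus strand: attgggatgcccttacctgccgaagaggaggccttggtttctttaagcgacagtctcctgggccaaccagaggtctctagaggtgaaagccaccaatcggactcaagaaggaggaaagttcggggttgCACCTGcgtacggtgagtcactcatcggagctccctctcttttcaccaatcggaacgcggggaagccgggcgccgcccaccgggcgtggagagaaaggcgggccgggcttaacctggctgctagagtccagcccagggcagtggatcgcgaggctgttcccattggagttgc
Pard6b, chr2:168080754-168081053, plus strand: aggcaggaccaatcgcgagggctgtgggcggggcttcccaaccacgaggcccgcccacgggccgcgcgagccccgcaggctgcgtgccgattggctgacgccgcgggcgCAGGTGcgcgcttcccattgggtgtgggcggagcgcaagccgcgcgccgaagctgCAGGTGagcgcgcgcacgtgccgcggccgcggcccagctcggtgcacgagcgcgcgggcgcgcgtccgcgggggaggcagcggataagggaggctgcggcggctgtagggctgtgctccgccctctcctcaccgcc
Cgn, chr3:94786433-94786732, minus strand: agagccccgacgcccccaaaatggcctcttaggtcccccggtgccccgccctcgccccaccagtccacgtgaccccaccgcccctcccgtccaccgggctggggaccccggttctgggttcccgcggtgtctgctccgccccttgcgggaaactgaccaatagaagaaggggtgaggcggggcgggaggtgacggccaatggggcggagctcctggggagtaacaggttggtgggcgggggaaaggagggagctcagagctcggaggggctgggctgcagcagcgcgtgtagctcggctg
Tjp1, chr7:65371195-65371494, minus strand: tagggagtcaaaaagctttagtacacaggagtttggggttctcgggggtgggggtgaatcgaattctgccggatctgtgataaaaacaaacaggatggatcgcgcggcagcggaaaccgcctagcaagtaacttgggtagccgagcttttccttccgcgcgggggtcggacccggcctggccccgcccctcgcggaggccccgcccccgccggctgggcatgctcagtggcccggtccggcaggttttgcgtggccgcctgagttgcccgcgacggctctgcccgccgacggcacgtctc
The E-box starts at bases 38 and 183 of the Ocln window, at base 294 of the Marveld2 window, at base 129 of the F11r window and at bases 110 and 165 of the Pard6b window.

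Of the 8 genes with a RefSeq window (Marveld3 had none), 5 held CAGGTG or CACCTG, namely the 4 above and Tjp3. Of the 3 that held none, Cgn and Afdn had a lower promoter and Tjp1 did not. Tjp1 was the only uncalled promoter among the 8, so these windows cannot show whether the E-box goes with the call. Over all genes with a window the share was 22.6%. Among all windows that lie inside tested peaks, 26.4% of 2559 in lower peaks held the E-box, against 18.3% of 12699 in uncalled peaks and 17.7% of 547 in higher peaks. The related E-box CACGTG stood in the windows of Pard6b, Cgn and Tjp3 (8.09% of all genes). The AP-1 motif TGANTCA was found in F11r alone (8.98% of all genes), and the GC box GGGCGG, read on either strand, in all of the 8 but Tjp3 (38.2% of all genes). Among windows inside tested peaks, as these are, 56.3% held the GC box, with 55.6% in lower peaks and 56.7% in uncalled ones. The grainyhead motif AACCGGTT, named for factors of epithelial genes, was in none of the 8 and in 0.174% of all genes. A match is a run of letters and not a measured binding site, and no factor was measured here.

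Chromatin at these genes was less accessible in resistant organoids at a part of the peaks, and no peak was called higher. Of the 110 peaks, 70 had an adjusted p in the authors' deposited table, and 22 of those were lower and 0 higher at an adjusted p under 0.05. Among all tested peaks of the series, 7.34% were lower and 5.02% higher at that threshold. At an unadjusted p under 0.05, 34 of the 70 lay below 0 and 2 above. Each of the 9 genes had at least 1 lower peak, and 15 of the 22 were lower by at least 2-fold. No share over all tested peaks is given for the unadjusted and the 2-fold counts, so they only describe these peaks. Nor is the share of all genes with at least 1 lower peak given, and it depends on the number of peaks per gene. Tjp1 counts here through 2 of 15 tested peaks, with its promoter uncalled. In the authors' deposited table the median log2 fold change over the 70 peaks was -0.55, against -0.07 over all tested peaks. In bulk libraries such as these, fewer cells of a type and less open chromatin per cell cannot be told apart. The other 40 peaks had mean counts of 4.09 to 14.5, under the limit of the authors' filter, and carry no call in either direction.

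**Figure D1:**
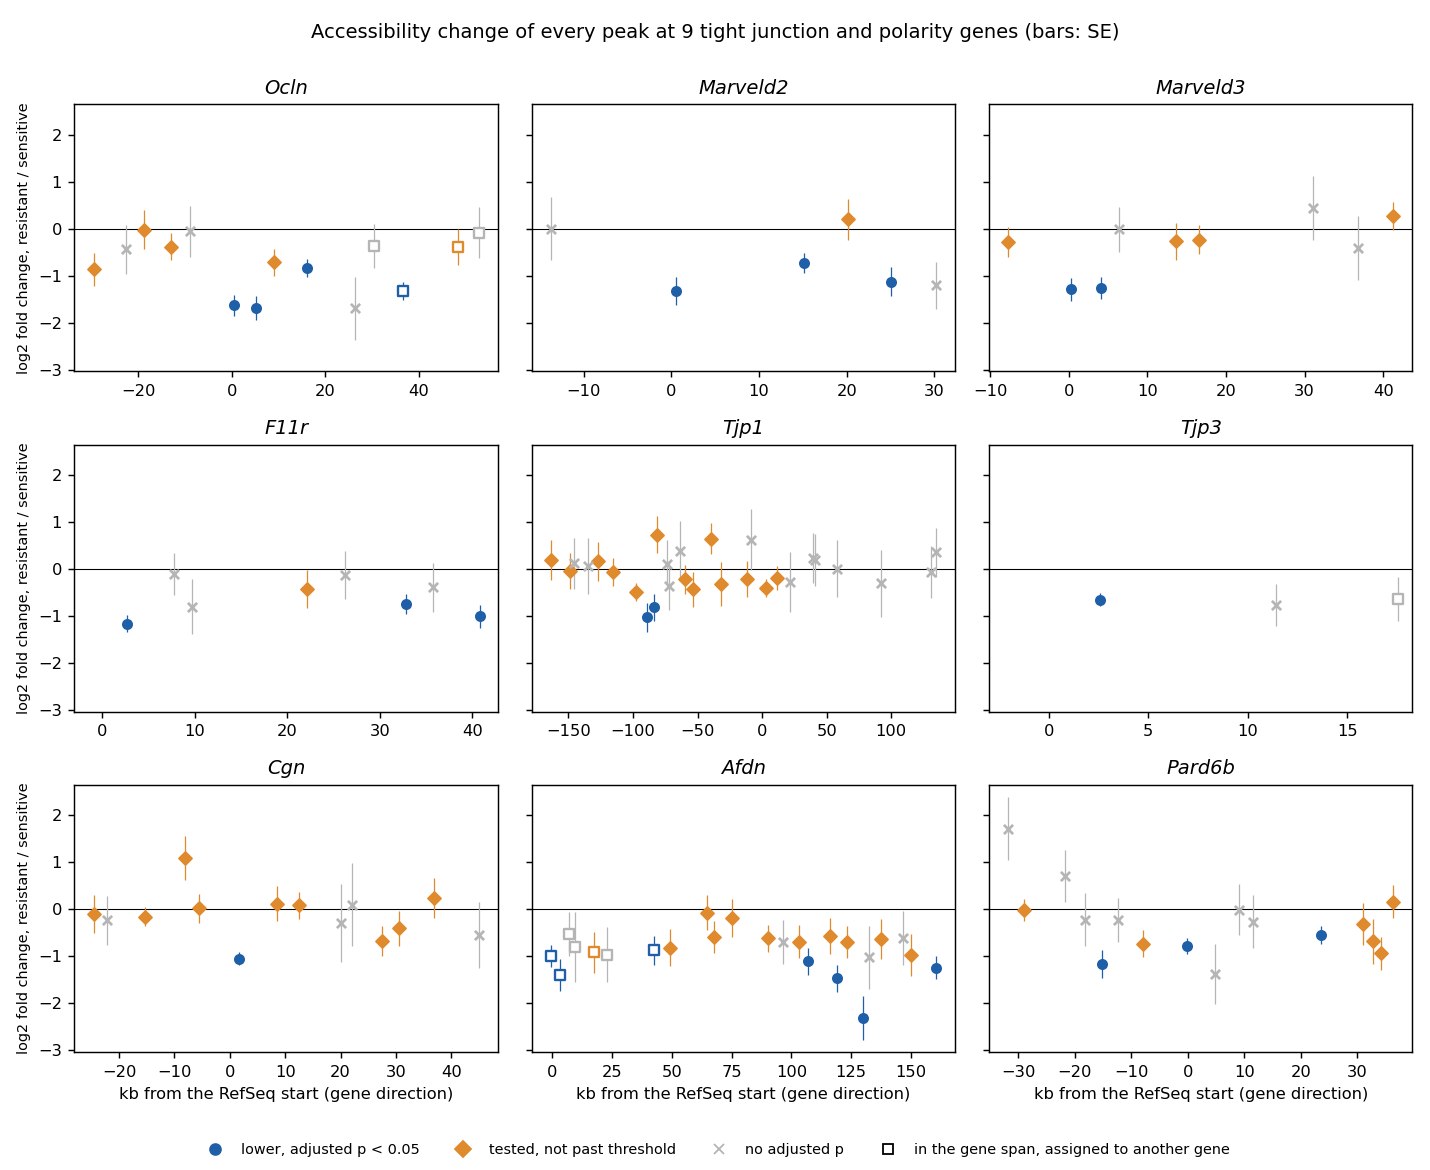
Log2 fold change (resistant over sensitive, bars are SE) of every peak at the 9 genes, plotted by its distance in kb from the RefSeq start along the direction of the gene. Blue points were lower at an adjusted p under 0.05, orange points were tested and did not pass, grey crosses had no adjusted p, and open squares in the same colours lie in the gene but were assigned to another one. The lower peaks of Marveld3 and the single one of Cgn lie at the start, those of Ocln and Afdn reach far into the gene, and those of Tjp1 lie far upstream of the start shown.

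Each gene was next represented by its strongest promoter peak, the tested peak within 3 kb of an annotated start that has the highest mean count. Of these 9 promoters in the authors' deposited table, 8 were lower and 0 higher, where 13.9% of all 15490 gene promoters were lower and 3.58% higher. Their median was -1.16, against -0.18 over all gene promoters. The fold change of the 9 ranged in the authors' deposited table from -2.31 at Afdn to -0.41 at Tjp1. Since the genes were chosen with this comparison known, nothing about the group is read from these counts.

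Ocln showed the steepest loss at a start site among the membrane proteins. Its promoter peak (mm10, chromosome 13, 100549900 to 100554530) had a log2 fold change of -1.63 ± 0.22 (SE; 95% interval -2.07 to -1.20) in the authors' deposited table, or 3.10-fold lower. The deposited mean and fold change together imply about 42.6 normalised counts per library in resistant organoids and 132 in sensitive ones. The next peak downstream, in intron 1 with its centre 5.10 kb from the RefSeq start, was also lower, at -1.69 ± 0.26 (SE) in the authors' deposited table. A broad peak of 9241 bp further inside the gene, annotated as 5′ UTR and the strongest one assigned to Ocln with a mean count of 139, fell by 0.83 ± 0.19 (SE) on the log2 scale there. The 3 tested peaks upstream of the gene did not pass, with values from -0.87 to -0.02. A further lower peak lies inside Ocln by position although the authors assigned it to the neighbouring Gtf2h2. It covers 10831 bp around exon 5, has a mean count of 141 and stood at -1.33 ± 0.19 (SE) in the authors' deposited table.

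Marveld2, whose protein belongs to the same family as occludin, starts 64.3 kb from Ocln on chromosome 13 and was lower at 3 of its 4 tested peaks. Its promoter (100615040 to 100617960) was at -1.32 ± 0.30 (SE), or 2.50-fold lower, in the authors' deposited table. A peak over exon 4 fell by 0.72 ± 0.22 (SE) and one just downstream of the gene, 7521 bp wide, by 1.12 ± 0.30 (SE) on the log2 scale there. The strongest of the 4 was the exonic one, with a mean count of 82.4, against 38.9 at the promoter. The tested peak in the 3′ UTR of Marveld2 was at 0.20 ± 0.44 (SE) and did not pass. Its mean count of 15.4 lies close to the lower limit of tested counts, and its SE is wide. This peak therefore cannot show whether the loss was continuous along the gene.

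Marveld3 had 6 tested peaks, and the 2 that were lower are its promoter peaks. The peak over the start (chromosome 8, 109959810 to 109963900) was at -1.29 ± 0.24 (SE), or 2.45-fold lower, and the adjacent one inside the gene (109956810 to 109959270) at -1.27 ± 0.24 (SE) in the authors' deposited table. The other tested peaks lay between -0.28 and 0.27, and 3 of the 9 peaks assigned to Marveld3 are annotated within exons or introns of a neighbouring gene. The lower peaks of Marveld3 are thus adjacent to each other at its start.

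F11r, which codes for junctional adhesion molecule A, was lower at its start and at some distance behind its end. The promoter peak (chromosome 1, 171436470 to 171443970) was at -1.16 ± 0.19 (SE), or 2.24-fold lower, in the authors' deposited table, with implied means of about 90.3 counts in resistant and 202 in sensitive organoids. No peak upstream of the promoter peak is assigned to this gene. Downstream of its end, intergenic peaks with centres 32.8 and 40.8 kb from the RefSeq start were lower in the authors' deposited table, at -0.75 ± 0.21 (SE) and -1.01 ± 0.24 (SE). The peak with its centre 22.1 kb from the start, inside the gene, was at -0.42 ± 0.40 (SE) and did not pass.

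Tjp1, which codes for the scaffold ZO-1, was the gene whose promoter peak was not called. That peak (chromosome 7, 65363950 to 65373030) was at -0.41 ± 0.19 (SE; 95% interval -0.78 to -0.04) in the authors' deposited table and had a mean count of 110, and its SE was smaller than those of Ocln and Marveld2. Its interval overlaps that of Tjp3 (-0.93 to -0.37), and no difference between the promoters was tested. With the 20 nearest peaks subtracted, Tjp1 was at -0.50, Tjp3 at -0.47 and Pard6b at -0.49. The peak covers the RefSeq promoter window printed above. The gene also has a start far upstream, at the end of its RefSeq span, and no peak assigned to Tjp1 covers that start. Of 15 tested peaks of Tjp1, 2 were lower, both in an intron between these starts, and the authors' deposited table has them at -1.03 ± 0.31 (SE) and -0.81 ± 0.29 (SE). The strongest peak of the gene, also in that intron with a mean count of 143, was at -0.49 ± 0.19 (SE) and did not pass. Other tested peaks of Tjp1 reached 0.73, so both signs occurred along the gene. For Tjp3, which codes for the related ZO-3, only 1 of 2 peaks was tested. It spans 10651 bp over the start (chromosome 10, 81283680 to 81294330), was the strongest peak of all 9 genes with a mean count of 297, and fell by 0.65 ± 0.14 (SE) (log2), or 1.57-fold, in the authors' deposited table.

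Cgn, which codes for the plaque protein cingulin, had a single lower peak, that over its start. The promoter peak (chromosome 3, 94779360 to 94790110), 10751 bp wide, was at -1.05 ± 0.15 (SE), or 2.07-fold lower, in the authors' deposited table, with implied means of about 171 counts in resistant and 353 in sensitive organoids. None of the 9 other tested peaks of Cgn passed, and their values ran from -0.66 to 1.10 with a median of 0.03 in the authors' deposited table. The highest of them, 1.10 ± 0.47 (SE) at an intergenic peak with a mean count of 14.8, lies close to the lower limit of tested counts. The strongest of them, an intergenic peak upstream with a mean count of 83.9, was at -0.16 ± 0.20 (SE).

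Afdn lies among peaks that were low as well, and its lowest peak does not lie at the start of the gene. All 14 tested peaks assigned to Afdn were below 0, with a median of -0.69, and 4 of them were lower in the authors' deposited table. The 20 nearest peaks assigned to other genes had medians of -0.86 to -0.81 there. Peaks inside Afdn that carry the symbol Tcte2 count as peaks of another gene in this step. The tested ones stood at -1.39 to -0.87, so part of what is subtracted may come from Afdn itself. With these medians subtracted, 9 of the 14 peaks were above 0, their median was 0.11, and 1 remained lower, the lowest one, at -1.50. The lowest (chromosome 17, 13889080 to 13892020) was at -2.31 ± 0.47 (SE), or 4.95-fold lower, with implied means of about 19.3 counts in resistant and 95.8 in sensitive organoids. It is annotated as a promoter because an internal transcript of the gene starts 226 bp from it. Its centre lies 130.009 kb downstream of the RefSeq start. Its SE was larger than that of 99.95% of the 2000 tested peaks closest to it in mean count, whose median SE was 0.25. The peak over the RefSeq start (13757980 to 13762320) was assigned by the authors to Tcte2, a neighbouring gene, and was at -0.998 ± 0.232 (SE), or 2.00-fold lower, in the authors' deposited table. Altogether 21 peaks lie within Afdn by position, 7 of them assigned to Tcte2, and 6 of the 16 tested were lower and 0 higher. With the start peak in place of the strongest assigned one, the promoter count of the 9 genes stays at 8 lower, and their median is -1.05.

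Pard6b, the polarity gene, was lower at 3 of 9 tested peaks, and its protein belongs to the PAR complex. Its promoter peak (chromosome 2, 168076590 to 168085100) was the strongest of the gene, with a mean count of 192, and was at -0.79 ± 0.17 (SE), or 1.72-fold lower, in the authors' deposited table. An exonic peak of another transcript, with its centre at -15.2 kb from the RefSeq start, fell by 1.16 ± 0.31 (SE) in log2 units there. The third, an intergenic peak downstream at -0.54 ± 0.20 (SE), passed narrowly with an adjusted p of 0.0498 from the authors' DESeq2 run in the authors' deposited table. Of all 70 peaks, those nearest to the limit on the other side were an exonic peak at -0.94 ± 0.36 (SE) and an intergenic one at -0.73 ± 0.28 (SE), both also of Pard6b.

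By annotation class, promoter peaks held 10 of the 22 lower peaks. Of 17 tested promoter peaks in the authors' deposited table, 10 were lower, against 9 of 37 in introns, exons, UTRs or just downstream and 3 of 16 in intergenic DNA. In the whole series 10.2% of tested promoter peaks and 6.23% of all other tested peaks were lower, so lower calls were also more frequent among promoters in general. The lower peaks had a median mean count of 64.9 and the uncalled ones of 24.1. Of 25 tested peaks with a mean count under 25, 0 were called by the authors' DESeq2 run in the authors' deposited table (3 below 0 and 1 above at an unadjusted p under 0.05), and of 19 with at least 50, 15 were. In all tested peaks of the series the shares called lower were 1.262% and 21.6%, and those called higher were 2.92% and 7.07%. The median SE was 0.40 in the weakest of these classes and 0.21 in the strongest. Promoter peaks over 5 kb wide, those of Cgn, Tjp3, Tjp1, Pard6b and F11r, cover far more than a promoter, and their values are averages over that width.

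**Figure D2:**
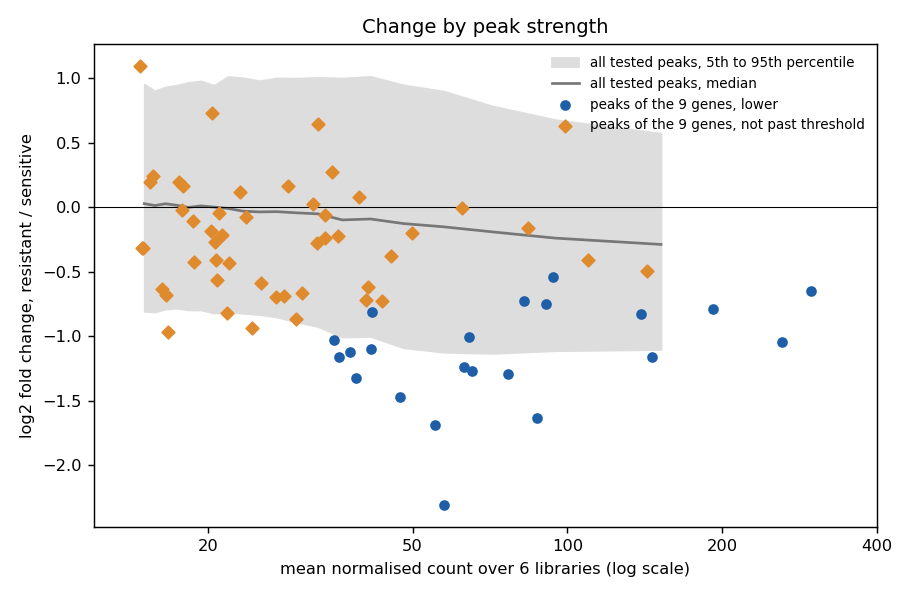
Log2 fold change (resistant over sensitive) against the mean normalised count over all 6 libraries (log scale) for the 70 tested peaks of the 9 genes, over a grey band for all tested peaks (5th to 95th percentile and median line, in 20 groups of equal size). Lower peaks (blue) start at a mean count of 35.2, and the median of all peaks itself sinks with peak strength.

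Each value was also read against its surroundings on the chromosome. The median of the 5 Mb window around the 9 promoters lay between -0.51 (Afdn) and 0.04 (Cgn). With that median subtracted, 8 of 9 promoters were again lower (6.64% of all gene promoters) and 19 of 70 peaks (3.95% of all tested peaks), the 19 all being among the 22 before. Afdn was then at -1.80, Ocln at -1.60 and Cgn at -1.09, and the peak over the start of Afdn at -0.49, no longer past the threshold. After subtraction of the median of the 20 closest peaks that belong to other genes, 10 peaks (3.82% of all tested peaks) and 6 promoters (6.62% of all gene promoters) were lower. Marveld2 (-0.87) and Pard6b (-0.49) narrowly lost their promoter call, with adjusted p of 0.060 and 0.052 in the normal test. The lower peaks then numbered 1 at Afdn and 0 at Marveld2, Tjp1 and Pard6b. For Marveld2 these 20 neighbours include 7 peaks of Ocln, and for Ocln they include 4 of Marveld2. Their medians were -0.45 in each case, and -0.39 and -0.41 without the peaks of the other gene. Other genes are told apart by assigned symbol alone. Peaks inside Ocln labelled Gtf2h2 (tested at -1.33 and -0.39) and peaks inside Afdn labelled Tcte2 could thus count among the neighbours as well. With the trend of fold change on mean count subtracted, 17 peaks (4.71% of all tested peaks) and 7 promoters (6.73% of all gene promoters) were lower, and Tjp3 lost its promoter call (-0.34). Whether the regional shifts have a part in the values was not tested.

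**Figure D3:**
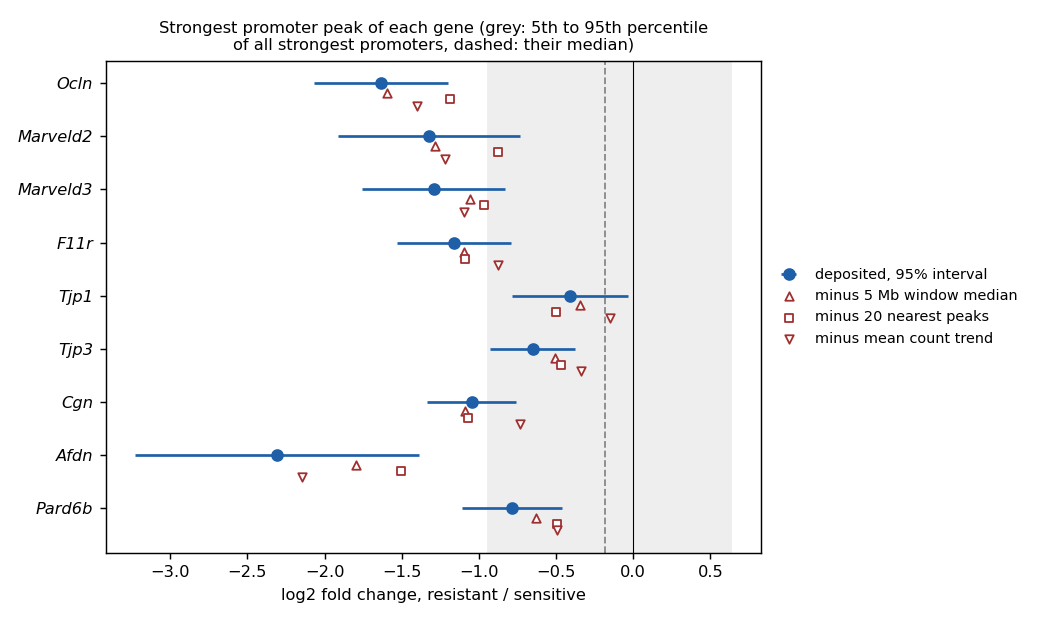
Log2 fold change (resistant over sensitive) of the strongest promoter peak of each gene, as deposited with its 95% interval (blue) and after subtraction of the 5 Mb window median, of the 20 nearest peaks or of the trend with mean count (open red symbols). Grey spans the 5th to 95th percentile of all gene promoters and the dashed line is their median, -0.18. Ocln, Marveld2, Marveld3, F11r, Cgn and Afdn lie left of the grey span before any subtraction, and Tjp1 lies nearest to 0.

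Other genes of the pathway were lower at a part of their promoters. In 3 lists written from textbook knowledge, the authors' deposited table has 14 of 48 gene promoters as lower and 1 as higher (13.9% and 3.58% of all gene promoters). With the trend with mean count subtracted, 9 were lower and 2 higher, where 6.73% of all gene promoters were lower. Of 20 other tight junction proteins 5 were lower and 0 higher, with a median of -0.25. They include Lsr, an angulin of tricellular junctions (-1.32 ± 0.20 (SE)), and Cxadr, the coxsackievirus and adenovirus receptor (-1.73 ± 0.23 (SE)), both in the authors' deposited table. Cxadr was at -0.35 and lost its call once the median of its window was subtracted. The paralog of cingulin, Cgnl1, was at -0.22 ± 0.23 (SE) and did not pass, against -1.05 for Cgn. Of the relatives of F11r, Jam2 was lower at -1.06 ± 0.34 (SE) while Jam3, at 0.45 ± 0.37 (SE), did not pass, both in the authors' deposited table. With the window median subtracted Jam2 was at -1.81, and 4 of these 20 genes were lower and 1 higher. Of all gene promoters 6.64% were lower in that step, and no share of higher ones is given for it. Tjap1 and Ildr1 were not called before and were singled out after their values were seen. Tjap1 was then higher at 0.75, and Ildr1 was lower at -2.02. Cxadr, Jam2 and Ildr1 all lie on chromosome 16, and so does Igsf5. Igsf5 was lower at -1.93 as deposited, and was at -0.71 and uncalled with the window median subtracted. The part of shifts along that chromosome in these values was not tested. No tested promoter peak was assigned to Pard6a or Pard6g. The differences between these paralogs were not tested.

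Of 17 other polarity proteins, 5 were lower and 0 higher, with a median of -0.23. Prkcz, which codes for an atypical protein kinase C that binds PAR6, was at -1.86 ± 0.30 (SE), and the Lgl genes Llgl1 and Llgl2 were at -0.63 ± 0.16 (SE) and -0.71 ± 0.21 (SE), all from the authors' deposited table. Of Prkcz, Llgl1 and Llgl2, only Prkcz kept its call with the window median subtracted. In the whole list 2 genes were then lower (6.64% of all gene promoters), Prkcz at -1.72 and Mark2 at -0.60. Prkci, the other atypical kinase, was at -0.15 ± 0.18 (SE). Of 11 partners of afadin, 4 were lower and 1 higher, with a median of -0.20. The nectins, which bind afadin directly, went in different directions, with Nectin2 at -0.89 ± 0.15 (SE) and Nectin4 at -1.02 ± 0.27 (SE) lower and Nectin3 at 1.76 ± 0.18 (SE) higher in the authors' deposited table. Nectin3 also lies on chromosome 16 and was no longer called, at 0.52, once the median of its window was subtracted. Lmo7, an afadin-binding protein, was at -0.75 ± 0.15 (SE).

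**Figure D4:**
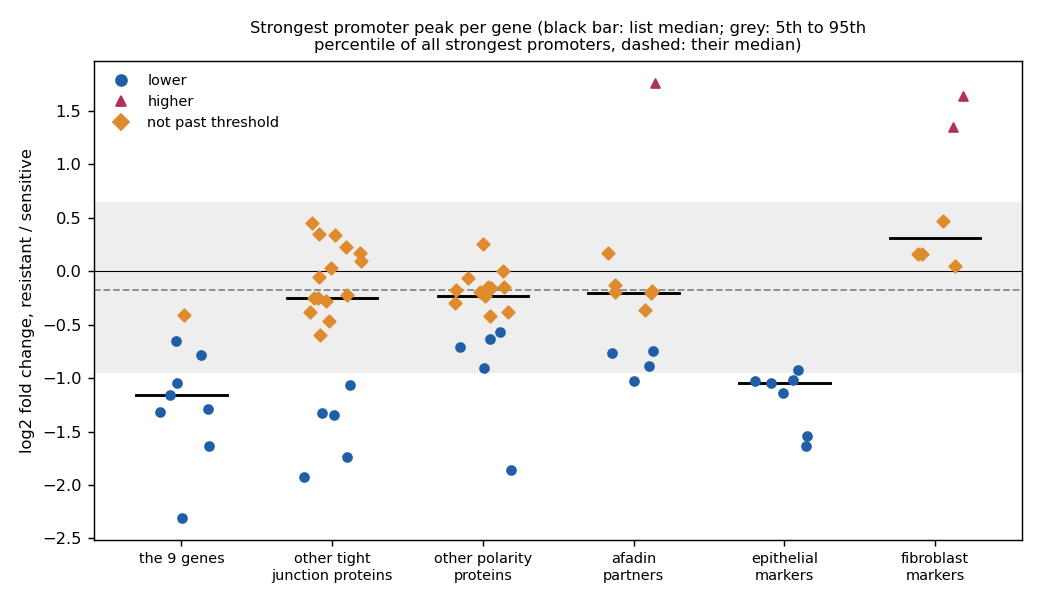
Log2 fold change (resistant over sensitive) of the strongest promoter peak of each gene in the 9 genes, 3 lists of related genes and 2 lists of markers. Blue circles were lower, red triangles higher and orange diamonds not past an adjusted p of 0.05, black bars are list medians, and grey spans the 5th to 95th percentile of all gene promoters. The median of the 9 genes, -1.16, lies by that of the epithelial markers, -1.05, the medians of the 3 related lists lie between -0.25 and -0.20, and that of the fibroblast markers is 0.31.

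Markers of cell types were counted beside these values. Of 8 epithelial markers 7 had a tested promoter peak, among them Epcam, Cdh1 and Nkx2-1. All 7 were lower, with a median of -1.05 and mean counts that sum to 3033. Of all gene promoters 13.9% were lower and 3.58% higher. The peaks of Krt8 and Krt18 lie next to each other on chromosome 15, so they may not be separate readings. Sftpc had no tested promoter peak. Of 8 fibroblast markers 6 were tested, with mean counts summing to 231, and Pdgfrb and Fap were higher while 4 did not pass. Of 8 endothelial markers 5 were tested and none called by the authors' DESeq2 run in the authors' deposited table, and of 8 immune markers 2 were tested, with none called there either. The part of cell composition in the values of the 9 genes was not tested.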

How the data were processed

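ATAC-seq libraries of resistant (3) and sensitive (3) organoids were compared by the authors. The submitters' processing notes name, with no role, the build mm10 and the authors' tools DESeq2 1.26.0, ChIPseeker 1.22.1, R 3.6.1, featureCounts, deepTools, GATK 4.1.3, SAMtools 1.8 and Bowtie2 2.2.1. Peak calling, duplicate removal and any Tn5 shift: not given in the sources used here. The authors' deposited table gives per peak a signal (the mean of normalized counts across the 6 libraries), a log2 fold change with its SE, the Wald statistic (a score), p-value and adjusted p-value, the peak width and the distance to a start. Its 6 columns of values per library have names that match no sample label and were not used, so no depth or value per library is given. The design assumed that such columns might match, and the alternatives that need them were not run.

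Peaks with an adjusted p under 0.05 from the authors' DESeq2 run count as called. Called values were counted as a description, with no test over the genes. Group means per library implied by a peak were computed from its mean count and fold change for 3 libraries against 3, and 95% intervals are 1.96 SE to each side. Window medians (5 Mb, at least 20 tested peaks), medians of the 20 nearest peaks of other genes, and a running median over 2001 peaks ordered by mean count were subtracted as alternatives, with the deposited SE kept, a normal test and Benjamini-Hochberg adjustment over all tested peaks. These steps were tested on simulated data with a constant shift per chromosome or a linear trend on the log mean count, and with independent noise. Shifts over segments or single loci were not simulated. RefSeq spans and 300-base promoter windows (GRCm38.p6) were matched by symbol, 9 and 8 of the 9 genes, and motifs were searched on both strands. The genes, lists and motifs were chosen with earlier results of these data known. By rule all 9 genes are named, with their promoter peaks, the largest called and the strongest other peaks, from each related list the 3 called genes of lowest p in either direction, and close paralogs. Some results under this rule are not reported here. Tools were matplotlib 3.10.9, statsmodels 0.14.6, SciPy 1.17.1, NumPy 2.4.6, pandas 2.3.3 and Python 3.11.15.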

Additional observations from a re-analysis of the deposited data

How the results depend on the processing

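No paired analysis was possible because the columns per library carry no name that matches a sample label, and for the same reason leaving out each replicate, a replicate block and an edgeR fit were not run. Over the alternatives that were run, no count of higher peaks or promoters among the 9 genes rose above 0, and no median changed sign. Called lower peaks of the 9 genes numbered 22 of 70, and 10 with the 20 nearest peaks subtracted; over the other alternatives they were between 15 and 20. Called lower promoters numbered 8, and 4 of 6 with peaks up to 5 kb wide, where fewer genes have a peak left; the others gave 6 to 8. The median of the promoters lay between -1.31 and -0.88. Lower promoters of the related genes numbered 14, against 7 at a change of at least 2-fold, 9 with the window median subtracted, 7 with the 20 nearest peaks subtracted and 9 with the trend subtracted, where 2 and not 1 were higher. The cause of these differences was not tested. Replacing assigned peaks by peaks within the gene spans, or the Afdn promoter by the peak over its RefSeq start, was chosen after seeing the data. Mean counts under 25 limit what can be called.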

Other observations

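By position, 12 peaks within the RefSeq spans of Afdn, Ocln and Tjp3 carry the symbols Tcte2, Gtf2h2 and Apba3, of which 4 were lower and 0 higher per the authors' deposited table. Of the 110 peaks assigned to the 9 genes, 43 lie outside their spans, 26 of them tested, with 6 lower and 0 higher there. Counted by position alone, 20 of 50 tested peaks within the 9 spans were lower and 0 higher, and their median log2 fold change in the authors' deposited table was -0.66.

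The lowest Afdn peak has an SE of 0.47 at a mean count of 57.6, where the 2000 nearest peaks in mean count have a median SE of 0.25. The SEs of the promoters of Ocln, Marveld2, F11r and Cgn lie at the 79.05, 72.9, 77.5 and 15.55 percentile of their own 2000 neighbours in mean count.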
